A study of Mus musculus with 4 samples.

Results

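Keratins are the intermediate filament proteins of epithelial cells. The members described here were selected by gene name, as every entry of the deposited table named Krt followed by a digit, and there were 52 of them among 23242 genes. They were described as 4 luminal keratins (Krt7, Krt8, Krt18 and Krt19), 4 basal keratins (Krt5, Krt14, Krt15 and Krt17) and 44 other keratins. RNA was sequenced from ventral and dorsal lobes of the prostate in 4 FVB mice. The 2 wildtype mice (mice 27 and 28) are labelled ERG negative. The 2 TMPRSS2:ERG homozygote mice (mice 26 and 29) are labelled ERG positive and are homozygous for a bacterial artificial chromosome with the TMPRSS2 locus, modified to hold exons of human ERG, which encodes a transcription factor of the ETS family. The cassette first held a GFP gene between loxP sites, which Cre protein injected into the pronucleus removed. All homozygotes descend from 1 sub-line, so an effect of the transgene and an effect of where it integrated in that line cannot be told apart. The labels used here give neither age nor a batch.

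A keratin filament is built from pairs of 1 acidic type I and 1 basic or neutral type II keratin, so an epithelial cell makes at least 1 of each. In the prostate the secretory luminal cells are known for Krt8 and Krt18, and the basal cells that line the basement membrane are known for Krt5 and Krt14. Krt7 and Krt19 are simple-epithelium keratins, Krt15 is a basal keratin, and Krt17 is a basal keratin also known from injured and growing epithelium. Krt4 is a keratin of stratified lining epithelia, and Krt20 marks the umbrella cells of the urothelium, the lining of the bladder and urethra.

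Of the 52 genes, 28 were type I and 24 type II. They lie in the keratin gene clusters on chromosomes 11 and 15, and Krt18, although type I, lies on chromosome 15 beside Krt8. Levels are given as scaled FPKM (fragments per kilobase of transcript, relative to the fragments of the library, divided by a scaling factor per library), which corrects for transcript length. A keratin was tested if its mean over the 4 libraries was at least 1 scaled FPKM. This left 14 keratins, namely all 4 luminal, all 4 basal and 6 others (Krt4, Krt20, Krt23, Krt78, Krt79 and Krt80). Another 13 were listed at 0 in every library, and the remaining 25 had some signal below the filter, 19 of them with a mean under 0.1 scaled FPKM. Just above the filter stood Krt17 (1.34 and 1.39 in the homozygotes, under 1 in both wild types) and Krt79. Krt10 was the highest keratin left out, with a mean of 0.753 scaled FPKM. Krt17 passed the filter only through the homozygotes, and Krt78 and Krt20 only through the wild types.

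Differences are log2 fold changes of homozygote over wild type on the log2(scaled FPKM + 1) scale, each with its standard error (SE), from limma fitted to all 11762 tested genes with Benjamini-Hochberg adjustment. A gene was called at an adjusted p under 0.05. With this rule 3 of the 14 tested keratins were called: Krt23 and Krt80 rose in the homozygotes and Krt4 fell, while none of the luminal and none of the basal keratins passed. Unadjusted p was under 0.05 for 1 luminal keratin (Krt19, 0.0266) and 2 basal keratins (Krt14, 0.0256, and Krt17, 0.00924), and no luminal or basal keratin had a q-value under 0.05 in the authors' deposited table. Among all tested genes 7.65% were called, 4.65% higher and 3.00% lower. The values of the homozygotes and wild types did not overlap for 8 of the 14 keratins, 4 higher and 4 lower, against 51.1% of all tested genes. That share is near the background and says nothing particular about keratins. By the authors' deposited call, 7 of the 19 keratins with a q-value had one under 0.05, 4 higher and 3 lower, against 14.2% of all genes with a q-value there.

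**Figure D1:**
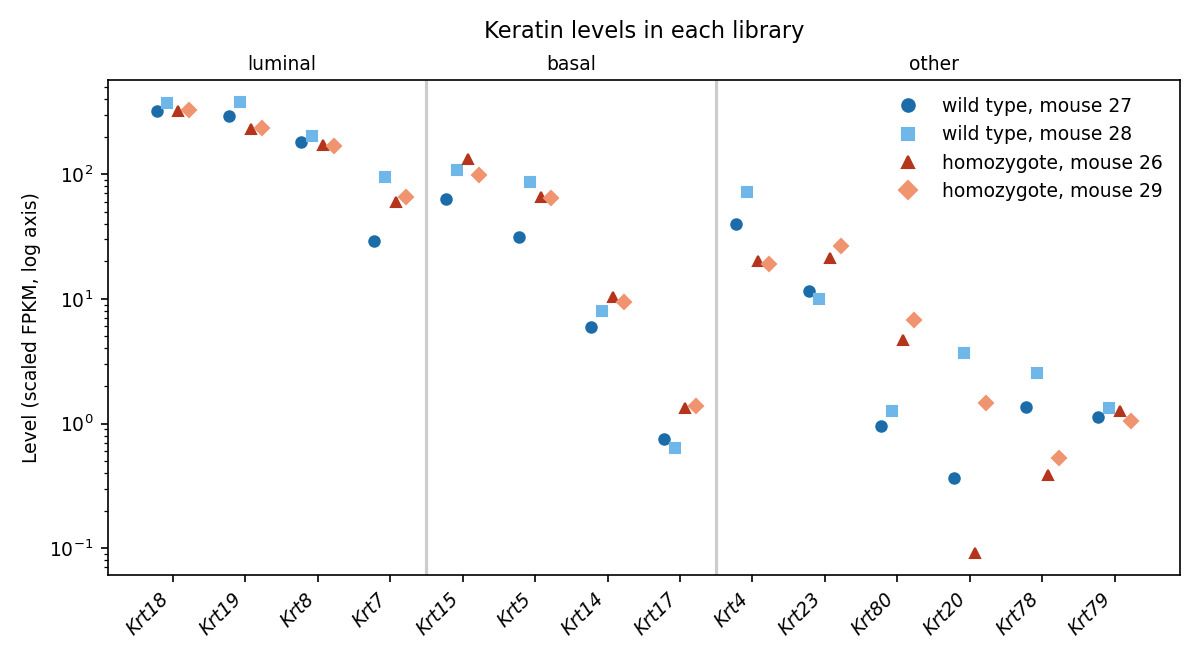
Levels of the 14 tested keratins in each library, on a log axis of scaled FPKM, grouped as luminal, basal and other. Both homozygotes lie above both wild types for Krt23 and Krt80 and below both for Krt4, whereas for Krt7 and Krt5 the 2 wild types lie on either side of the homozygotes.

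The libraries were similar in depth, at an estimated 4.23e+07 to 4.7e+07 fragments, read from the smallest step between low values. Between 11541 and 11854 genes per library reached 1 FPKM. The tissue label was checked against epithelial markers: Epcam and Cdh1 were well expressed in all libraries, Epcam at 263 and 245 scaled FPKM in the wild types and 442 and 437 in the homozygotes. The mouse Erg gene lay between 0.881 and 1.12 scaled FPKM in the 4 libraries and does not check the genotype, since the human ERG transcript was not analysed here. Some markers of other tissues were lower in the homozygotes. The 12 smooth muscle genes summed to 2917 and 2021 scaled FPKM in the wild types and 1455 and 1703 in the homozygotes. The 9 seminal vesicle genes with a value in every library summed to 42713 and 11082 against 4352.5 and 8185. Of this seminal vesicle sum, Pate4 alone held 15870 and 9904 in the wild types and 4318 and 8148 in the homozygotes. Pate4 was not called (adjusted p = 0.325 in limma). Of the 12 smooth muscle genes 0 had a fold change above 0, and the median log2 fold change was -0.58. In limma 9 of them had an unadjusted p under 0.05. For 11 of 12 both homozygotes lay below both wild types. Groups did not overlap, in either direction, for 51.1% of all tested genes. After adjustment 1 of the 12 was called lower, against 3.00% of all tested genes. It was Pgm5, a phosphoglucomutase-like protein of muscle adhesions, at -0.72 on the log2 scale (adjusted p = 0.0268, but 0.222 without mouse 26 and 0.113 without mouse 29). Of the seminal vesicle genes 6 of 9 fell, among them the secretory genes Svs1, Svs3a, Svs3b and Svs6, yet the wild types differed widely from each other. Svs1 stood at 3421 and 236 scaled FPKM in the wild types and 3.83 and 1.05 in the homozygotes (adjusted p = 0.0173), Svs6 at 12079 and 455 against 12.3 and 15.9 (0.0398). Svs3a (0.0321) and Svs3b (0.0314) had the same pattern, and all 4 missed the threshold with a robust trend (adjusted p 0.164 to 0.239) or without the filter (0.0634 to 0.111). Svs3a and Svs3b are close copies. The part of either tissue in the keratin values was not tested. In whole lobes, a lower level can come from fewer cells of a type or from less RNA per cell, and these cannot be told apart.

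Krt23, a type I keratin of simple epithelia (Entrez 94179, mm10 chr11:99477973-99493110), rose in the homozygotes. Its level was 11.5 and 10.0 scaled FPKM in wild-type mice 27 and 28, and 21.4 and 26.8 in homozygous mice 26 and 29. Both homozygotes stood well above both wild types, by more than either genotype's own spread. The group means were 10.8 ± 1.04 and 24.1 ± 3.76 scaled FPKM (SD, n = 2 each), a ratio of 2.24. The log2 fold change was 1.09 (SE 0.144, 95% interval 0.73 to 1.45, adjusted p = 0.0118 in limma). It kept its sign and stayed past the threshold in all 11 refits tried, at 0.94 to 1.24, including those that left out each library.

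Krt80, a type II keratin whose protein is found near desmosomes in many epithelia (Entrez 74127, mm10 chr15:101349571-101370125), had the largest rise among the tested keratins. It was near the filter in the wild types, at 0.952 and 1.27 scaled FPKM, and at 4.70 and 6.73 in the homozygotes. The groups did not overlap, and the ratio of means was 5.14. The log2 fold change was 1.66 (SE 0.183, 95% interval 1.20 to 2.11, adjusted p = 0.00662 in limma), and it stayed past the threshold in all 10 refits that tested it, at 1.44 to 2.25. The entry overlaps that of the microRNA gene Mir1941, whose reads could be shared with it. In the authors' deposited table the log2 folds were 1.30 for Krt23 (q = 7.48e-08) and 2.43 for Krt80 (q = 8.15e-11), computed there without the added 1.

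Krt4, a type II keratin (Entrez 16682, mm10 chr15:101918535-101924735), fell in the homozygotes. The wild types had 39.8 and 72.5 scaled FPKM and the homozygotes 20.3 and 19.1. The homozygotes were close to each other and below both wild types, which were themselves 0.85 apart on the log2(scaled FPKM + 1) scale. The log2 fold change was -1.40 (SE 0.272, 95% interval -2.08 to -0.73, adjusted p = 0.0394 in limma). The call depended on the setting: adjusted p was 0.0940 without scaling, 0.0581 with quantile normalization, 0.101 without the filter, 0.0585 without mouse 26 and 0.0714 without mouse 29. The sign was the same in all 11 refits, at -1.83 to -0.98, and it was called in 6 of them. Set against Krt8, a luminal keratin of the same type, Krt4 stood at 21.9% and 35.7% of its level in the wild types and at 11.9% and 11.5% in the homozygotes. The authors' deposited table gives Krt4 a log2 fold of -1.62 (q = 8.59e-13).

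Krt78, a type II keratin of stratified epithelia that lies close to Krt4 (Entrez 332131, mm10 chr15:101946004-101954287), also had lower values in the homozygotes but missed the threshold. It stood at 1.35 and 2.56 scaled FPKM in the wild types and 0.386 and 0.529 in the homozygotes, a log2 fold change of -0.99 (SE 0.220, adjusted p = 0.0570 in limma). It was past the threshold with a pseudocount of 0.1 (adjusted p = 0.0440), with a robust trend (0.0433) and without mouse 27 (6.22e-04). Its log2 fold is -2.15 in the authors' deposited table (q = 2.3e-09). Krt79, the gene between Krt4 and Krt78, differed by less than the spread within each genotype, with 1.12 and 1.34 scaled FPKM in the wild types and 1.26 and 1.05 in the homozygotes. Its log2 fold change was -0.05 (SE 0.133, adjusted p = 0.888 in limma), and the sign turned with quantile normalization, at 0.02.

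**Figure D2:**
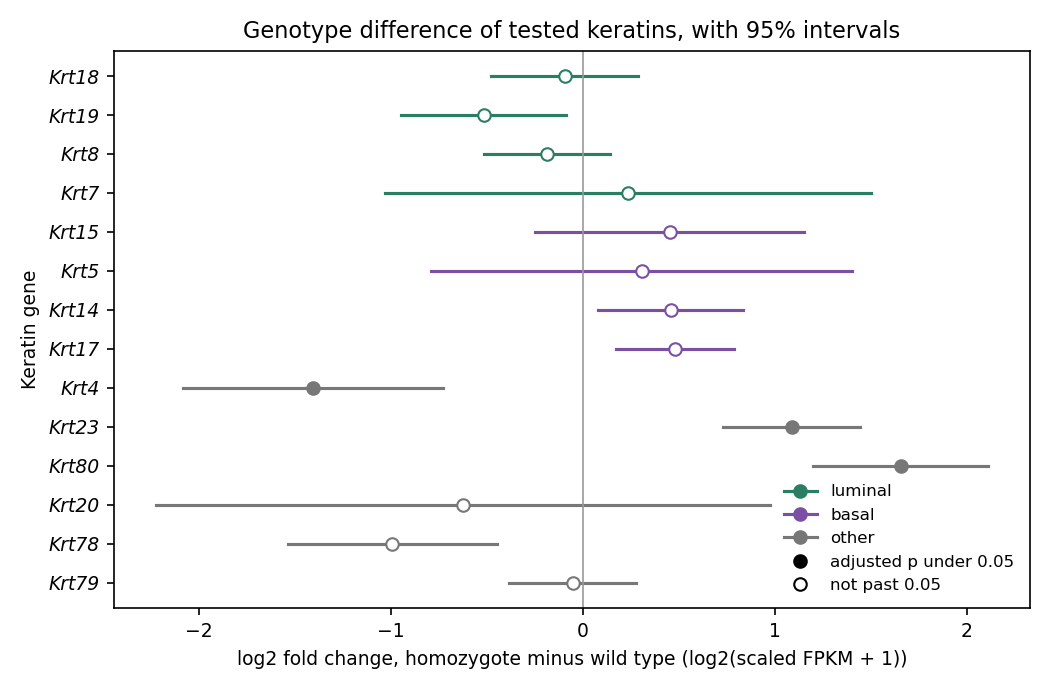
Log2 fold change of each tested keratin, homozygote minus wild type on the log2(scaled FPKM + 1) scale, with 95% intervals from limma and filled points for an adjusted p under 0.05. Krt4 is the filled point below 0 and Krt23 and Krt80 are those above it, while every luminal and basal point is open.

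Krt20 differed more between libraries of a genotype than between the genotypes. Its level was 0.364 scaled FPKM in wild-type mouse 27, 3.66 in wild-type mouse 28, 0.0922 in homozygous mouse 26 and 1.45 in homozygous mouse 29, so the genotypes overlapped. Its log2 fold change was -0.62 (SE 0.644, adjusted p = 0.672 in limma), with an adjusted p of 0.0270 at -1.51 without mouse 27 and a fold near 0 (-0.04) without mouse 26. The authors' deposited table gives a log2 fold of -1.43 (q = 0.00427). Of the 11 urothelium genes listed, 7 ran in the same order of libraries, mouse 28 highest, then 29, 27 and 26, and 4 did not (Upk1a, Gata3, Foxa1 and Gsdmc2). Upk3a, a plaque protein of the umbrella cell surface, had 1.91 and 51.7 scaled FPKM in the wild types and 1.31 and 12.7 in the homozygotes. Upk2, from the same plaques, had 4.62 and 42.9 against 2.64 and 9.93. Sprr1a, a cornified envelope protein, ran from 2.62 in mouse 26 to 134 in mouse 28, and Aqp3, a water channel taken from the basal list, from 0.468 to 38.0. Gata3, a transcription factor, was highest in mouse 29, at 80.2 against 55.8 to 60.6 in the others. The examples in that order were named after their values were seen. The order was set by Krt20, and its share over all genes was not computed. It also held for 4 of 15 keratin transcription and basal fate factors, 3 of 14 keratin linker genes and 2 of 16 basal genes. Among mesothelium genes it held for 2 of 11 (Upk1b and Upk3b) and among squamous genes for 1 of 20 (Sprr1a). These are urothelium genes too. In the other lists it held for none.

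Of the urothelium genes, 10 were tested and 1 fell (against 3.00% of all tested genes), Gsdmc2, a gasdermin gene of a family of close copies (log2 fold change -3.27, SE 0.488, adjusted p = 0.0178 in limma). None of the 10 rose, 3 had a fold change above 0, and the median log2 fold change was -0.57, against -0.0033 over all tested genes. Gsdmc2 had 7.36 and 21.7 scaled FPKM in the wild types and 0.813 and 0.133 in the homozygotes. It passed the filter only through the wild types. The call of Gsdmc2 was lost without the filter (adjusted p = 0.0642) and with a robust trend (0.0972). The summed level of the 11 genes was 447 and 941 scaled FPKM in the wild types and 573 and 601 in the homozygotes (Upk1a alone was 266 and 445, and 389 and 331). The squamous list, cornified envelope and hair proteins, summed to 13.7 and 170 scaled FPKM in the wild types and 9.68 and 48.5 in the homozygotes. Sprr1a, also in the urothelium list, alone was 4.61 and 134, and 2.62 and 36.8. In limma none of the 5 tested squamous genes passed (1 had an unadjusted p under 0.05, and 3 an authors' deposited q-value under 0.05). Of the 20 squamous genes, 7 were listed at 0 in all libraries, Sprr1b and Sprr3 among them. Ivl, the envelope protein involucrin, had 0.131 and 12.3 scaled FPKM in the wild types and 0.189 and 1.42 in the homozygotes, highest in mouse 28 as for Sprr1a. Calml3, a calmodulin-like protein, had 3.93 and 3.27 against 2.06 and 2.89 (adjusted p = 0.230). Krt13, a partner of Krt4 in stratified epithelia, lay below the filter at 0.0280 and 0.306 scaled FPKM in the wild types and 0.0499 and 0.111 in the homozygotes. Here too mouse 28 was highest. The part of urothelium in the levels of Krt20, Krt13 or Krt4 was not tested.

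Krt4 is also known from the luminal cells near the urethra, called proximal luminal or progenitor-like cells. Of the 13 genes listed for these cells, all were tested, 2 rose and 2 fell (against 7.65% of all tested genes called), 10 had groups that did not overlap (against 51.1%), and the median log2 fold change was -0.47. Psca, a cell surface antigen, stood at 105 and 138 scaled FPKM in the wild types and 19.9 and 25.5 in the homozygotes. Cbr2, a carbonyl reductase, stood at 968 and 1220 against 355 and 268. Both fell, as did Krt4, with log2 fold changes of -2.37 (SE 0.185, adjusted p = 0.00209 in limma) and -1.81 (SE 0.225, adjusted p = 0.00992). Ly6a, the Sca-1 antigen and 1 of a family of close copies, rose, with 123 and 112 scaled FPKM in the wild types and 931 and 727 in the homozygotes. Wfdc2, a secreted protein with a protease-inhibitor fold, rose as well, with 35.3 and 68.7 against 247 and 250 (log2 fold changes 2.80, SE 0.179, adjusted p = 0.00109, and 2.31, SE 0.303, adjusted p = 0.0115). The markers of these cells therefore did not move in 1 direction with Krt4. Without mouse 29 the adjusted p of Cbr2 was 0.0588.

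**Figure D3:**
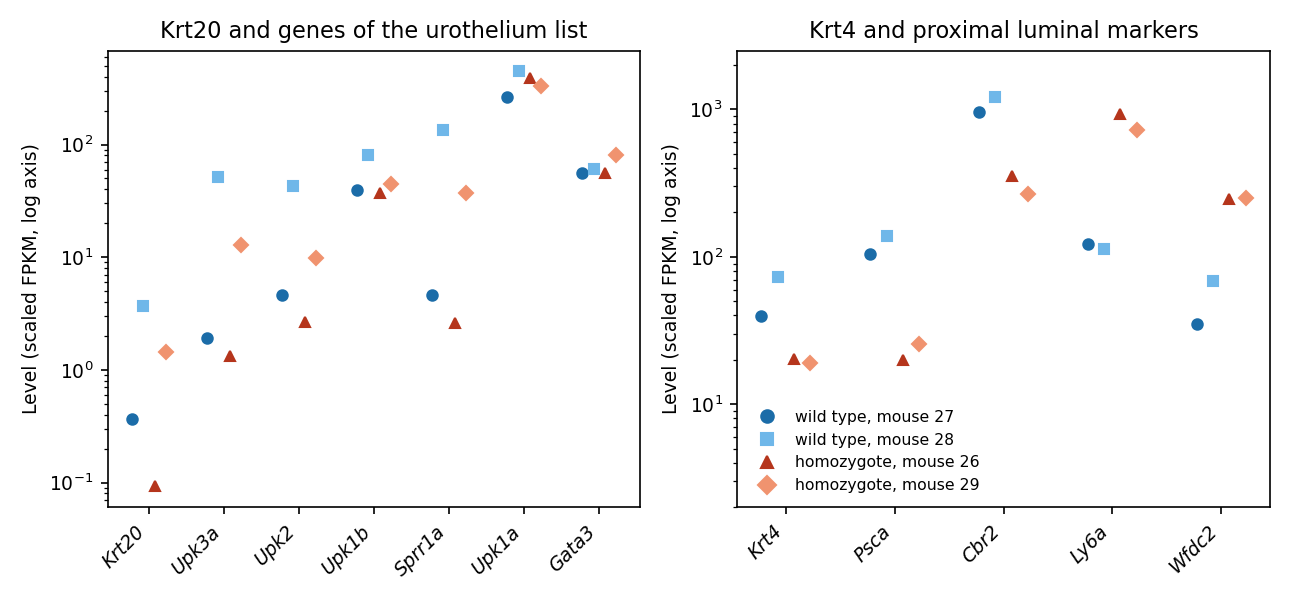
Level in each library, on log axes of scaled FPKM, of Krt20 beside genes of the urothelium list and of Krt4 beside markers of proximal luminal cells. Krt20, Upk3a, Upk2, Upk1b and Sprr1a have mouse 28 highest and mouse 26 lowest, Upk1a and Gata3 do not, and Krt4, Psca and Cbr2 are lower and Ly6a and Wfdc2 higher in both homozygotes.

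Krt18, Krt19 and Krt8 were the 3 most abundant keratins in every library, while Krt7 lay among the basal ones. None of the 4 was called, and their median log2 fold change was -0.14. Krt18 (mm10 chr15:102028216-102032026) had 323 and 373 scaled FPKM in the wild types and 322 and 328 in the homozygotes, and Krt8 (mm10 chr15:101996711-102004342) had 182 and 203 against 171 and 167. The homozygotes were at the lower edge of the wild types for Krt18 and just below both for Krt8. The log2 fold changes were -0.09 for Krt18 (SE 0.154, adjusted p = 0.808 in limma) and -0.19 for Krt8 (SE 0.132, adjusted p = 0.508). Their 95% intervals, -0.48 to 0.29 and -0.51 to 0.14, leave room for a modest difference in either direction. The sign for Krt18 turned without mouse 28, at 0.01. The ratio of Krt8 to Krt18, the type II and type I partners of simple epithelium, was 0.563 and 0.545 in the wild types and 0.530 and 0.509 in the homozygotes.

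Krt19, the smallest keratin, which lacks most of the tail domain, had the clearest difference among the luminal keratins without passing the test. It stood at 293 and 376 scaled FPKM in the wild types and 231 and 233 in the homozygotes (mm10 chr11:100140811-100145919). Both homozygotes lay below both wild types. The log2 fold change was -0.52 (SE 0.173, 95% interval -0.95 to -0.09, adjusted p = 0.163 in limma), and without mouse 27 it was -0.70 with an adjusted p of 0.0349. Relative to Krt18, also type I, Krt19 was at 0.904 and 1.01 in the wild types and 0.716 and 0.710 in the homozygotes.

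Krt7 (mm10 chr15:101412403-101427806) showed the widest gap between the wild types of all luminal and basal keratins. It had 29.2 scaled FPKM in mouse 27 and 95.1 in mouse 28, and 60.1 and 65.0 in the homozygotes, which lay between them. The log2 fold change was 0.24 (SE 0.510, 95% interval -1.03 to 1.50, adjusted p = 0.861 in limma). Its direction depended on which wild type was left out: it was lower at -0.60 (adjusted p = 0.0146) without mouse 27 and higher at 1.07 (adjusted p = 9.48e-04) without mouse 28. As a ratio to Krt8 it ran from 0.160 in mouse 27 to 0.469 in mouse 28, with 0.352 and 0.389 in the homozygotes.

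The median log2 fold change of the basal keratins was 0.46 and all 4 lay above 0, but none was called. Krt17 (mm10 chr11:100256217-100260989), which was tested only because its homozygote values lifted it over the filter, had 0.750 and 0.640 scaled FPKM in the wild types and 1.34 and 1.39 in the homozygotes. Its log2 fold change was 0.48 (SE 0.124, 95% interval 0.17 to 0.79, adjusted p = 0.0876 in limma). The low level rests on few fragments, an estimated 45 and 44 in the wild types and 95 and 105 in the homozygotes. Krt14 (mm10 chr11:100203162-100207510) had 5.98 and 8.02 scaled FPKM in the wild types and 10.3 and 9.51 in the homozygotes, with both homozygotes above both wild types. Its log2 fold change was 0.46 (SE 0.152, 95% interval 0.08 to 0.84, adjusted p = 0.160 in limma). Without mouse 27 Krt17 passed (adjusted p = 0.0353), and without mouse 28 Krt14 passed (0.0105).

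Krt5, the type II partner of Krt14 (mm10 chr15:101707070-101712891) showed, as Krt7 did, a wide gap between the wild types. It had 31.5 scaled FPKM in mouse 27, 87.1 in mouse 28, and 66.0 and 64.4 in the homozygotes, so the homozygotes lay between the wild types. The log2 fold change was 0.31 (SE 0.441, 95% interval -0.79 to 1.40, adjusted p = 0.776 in limma). It was 1.03 without mouse 28 (adjusted p = 0.00101) and -0.41 without mouse 27 (adjusted p = 0.0572). Krt15 (mm10 chr11:100131759-100135949) was the most abundant basal keratin, at 63.7 and 109 scaled FPKM in the wild types and 132 and 98.8 in the homozygotes, which overlap. Its log2 fold change was 0.45 (SE 0.281, 95% interval -0.25 to 1.15, adjusted p = 0.446 in limma), and 0.83 with an adjusted p of 0.0217 without mouse 28. Krt15 was 10.7 and 13.6 times Krt14 in the wild types and 12.9 and 10.4 times in the homozygotes, while Krt5 was 5.27 and 10.9 times Krt14 in the wild types and 6.42 and 6.77 times in the homozygotes.

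**Figure D4:**
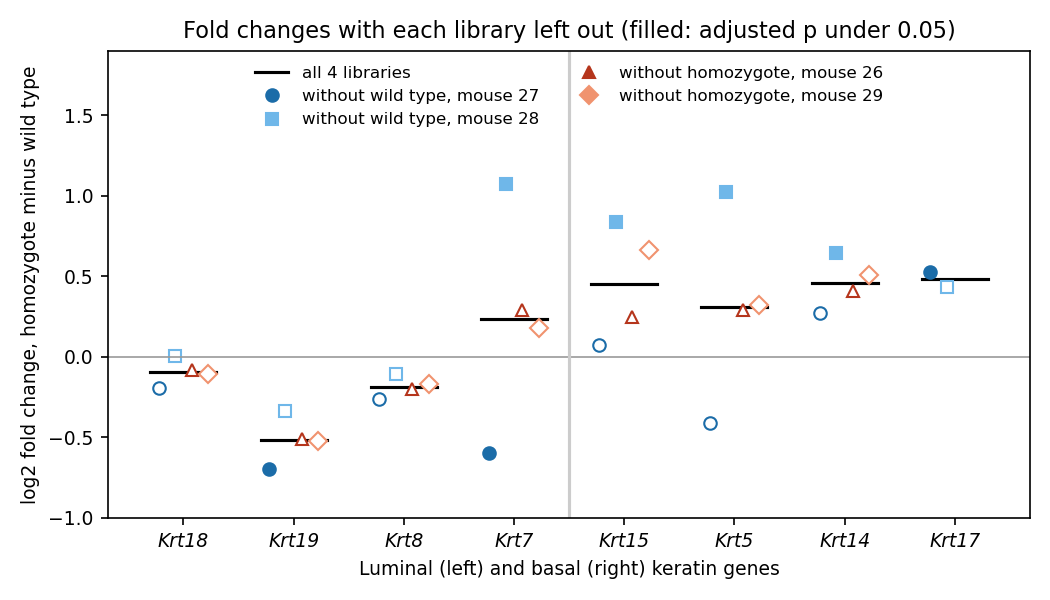
Log2 fold change of the luminal and basal keratins with all 4 libraries (black line) and with each library left out (symbols, filled where the adjusted p is under 0.05, absent where Krt17 no longer reaches the filter). For Krt7 and Krt5 the value without mouse 27 is below 0 and that without mouse 28 above 1, while leaving out a homozygote moves them little.

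The spread within genotype was larger for keratins in the wild types. Of the 14 tested keratins, 12 were higher in mouse 28 than in mouse 27. For 12 the gap between the wild types exceeded that between the homozygotes. The matching shares of all tested genes were not computed. The median absolute log2 gap of the keratins was 0.37 between wild types and 0.11 between homozygotes, against 0.18 and 0.11 over all tested genes. Without mouse 27 the log2 fold changes were 1.18 for Krt23, 1.55 for Krt80 and -1.83 for Krt4. Without mouse 28 they were 1.00, 1.77 and -0.98. The labels do not say whether the wild types differ in age, dissection or batch, and the source of this gap was not tested.

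Summed over the family, keratins came to 987 and 1345 scaled FPKM in the wild types and 1046 and 1026 in the homozygotes. Luminal keratins made up 83.9% and 77.8% of the sum in the wild types and 74.9% and 77.3% in the homozygotes. The luminal sum was 827 and 1047 scaled FPKM in the wild types and 784 and 793 in the homozygotes, below both wild types, and the basal sum was 102 and 204 against 210 and 174, which overlap. The basal sum as a percentage of the luminal sum was 12.3 and 19.5 in the wild types (15.9 ± 5.09, SD, n = 2) and 26.8 and 22.0 in the homozygotes (24.4 ± 3.41, SD, n = 2). Both homozygotes had the larger percentage, yet mouse 28 was nearer to mouse 29 than to mouse 27. With 2 mice a group an exact permutation test cannot give a two-sided p under 0.333, and none was run on these sums. Type II keratins stood at 0.410 and 0.526 of the type I sum in the wild types and 0.452 and 0.466 in the homozygotes.

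**Figure D5:**
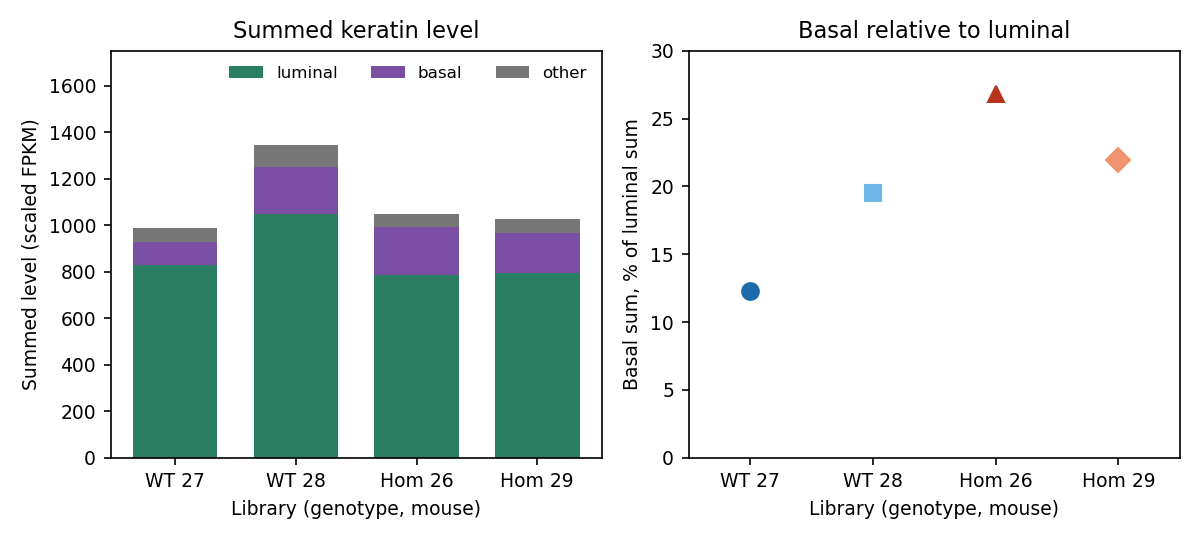
Left, summed scaled FPKM of luminal, basal and other keratins stacked for each library. Right, the basal sum as a percentage of the luminal sum, which is 12.3 and 19.5 in the wild types (WT) and 26.8 and 22.0 in the homozygotes (Hom).

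Several keratins of stratified skin and hair lay below the filter, and those named here were picked after their values were seen. Krt2, a type II keratin of the upper epidermis (mm10 chromosome 15), was close to 0 in the wild types, at 0.0080 and 0.0207 scaled FPKM, and at 1.14 and 0.841 in the homozygotes. That is an estimated 1 and 2 fragments against 136 and 108, so the size of a fold is poorly set by the wild types. When no filter was applied its limma adjusted p was 0.0170, and the authors' deposited table gives a log2 fold of 5.83 (q = 1.79e-05). Krt39, a type I hair keratin, had 0.0865 and 0.0861 scaled FPKM in the wild types and 0.583 and 0.500 in the homozygotes (adjusted p without a filter 0.0167, and in the authors' deposited table a log2 fold of 2.65 with q = 6.87e-04). Krt1, the epidermal type II keratin next to Krt2, had 0.375 and 0.550 against 0.969 and 0.846 and did not pass without the filter (adjusted p = 0.113). Its epidermal type I partner Krt10 had 0.852 and 0.820 in the wild types and 0.716 and 0.623 in the homozygotes, so the partners differed in opposite directions, neither past the test. The hair keratins Krt81, Krt83 and Krt86 are close copies, and the entry of Krt85, another hair keratin, spans all 3. The low values of these genes and of Krt85 are therefore uncertain.

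For genes whose 250 bases upstream of the transcription start were in the RefSeq table (GRCm38.p6, the same assembly as mm10), these bases were read and searched for GGAA on either strand, the core letters bound by ETS factors such as ERG. The table held 34 of the 52 keratins and 9 of the 14 tested ones, and neither Krt4 nor Krt80 was among them. Shown are Krt23, which rose, Krt2, which was higher below the filter, Krt78, which was lower without passing, and the luminal pair Krt8 and Krt18, which were not called. They are chr11:99493121-99493370 (minus strand) for Krt23, chr15:101818170-101818419 (minus) for Krt2, chr15:101954288-101954537 (minus) for Krt78, chr15:102004343-102004592 (minus) for Krt8 and chr15:102027966-102028215 (plus) for Krt18. Each is written 5′ to 3′ along the gene's own strand, and capitals mark GGAA or its reverse complement TTCC.
Krt23: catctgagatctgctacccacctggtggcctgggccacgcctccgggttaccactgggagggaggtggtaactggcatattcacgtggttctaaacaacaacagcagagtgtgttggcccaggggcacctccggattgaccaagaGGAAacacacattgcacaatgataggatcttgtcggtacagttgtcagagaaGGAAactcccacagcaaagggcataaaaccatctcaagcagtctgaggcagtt
Krt2: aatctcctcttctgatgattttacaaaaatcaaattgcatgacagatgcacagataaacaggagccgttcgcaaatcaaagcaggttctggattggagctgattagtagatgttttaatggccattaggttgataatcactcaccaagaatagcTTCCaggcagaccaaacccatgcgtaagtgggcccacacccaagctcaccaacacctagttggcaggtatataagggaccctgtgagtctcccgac
Krt78: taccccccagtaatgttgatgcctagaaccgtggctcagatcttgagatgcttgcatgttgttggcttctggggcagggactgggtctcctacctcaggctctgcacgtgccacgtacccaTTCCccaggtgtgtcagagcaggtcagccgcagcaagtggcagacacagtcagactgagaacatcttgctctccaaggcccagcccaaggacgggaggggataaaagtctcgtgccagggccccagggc
Krt8: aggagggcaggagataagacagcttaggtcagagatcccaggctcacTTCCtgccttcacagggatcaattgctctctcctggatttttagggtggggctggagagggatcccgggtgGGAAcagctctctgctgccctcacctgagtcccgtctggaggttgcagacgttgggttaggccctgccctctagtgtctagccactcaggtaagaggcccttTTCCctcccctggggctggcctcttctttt
Krt18: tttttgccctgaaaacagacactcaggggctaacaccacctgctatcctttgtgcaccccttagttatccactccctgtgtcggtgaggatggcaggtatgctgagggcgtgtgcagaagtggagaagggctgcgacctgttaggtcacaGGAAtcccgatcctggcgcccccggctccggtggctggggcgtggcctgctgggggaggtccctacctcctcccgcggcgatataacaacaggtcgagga
Krt23 held 2 matches, Krt8 held 3, and Krt2, Krt78 and Krt18 held 1 each. Over 32526 promoters of the same length 93.4% held at least 1 match, with a median of 3 (quartiles 2 and 4), so the count in Krt23 is no higher than usual. The longer AGGAAG, which contains GGAA, was found on either strand in Krt8 alone of the 5 and in 29.6% of all promoters. CCGGAA was found in none of the 5 and in 12.1% of all. Of the tested keratins not shown, Krt20 held 7 GGAA matches, Krt14 held 6, Krt7 and Krt79 held 3 each and Krt5 held 2. Among these, AGGAAG was found in Krt20 and Krt7, and CCGGAA in Krt14. A match describes these letters only.

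Of the proteins that keratin filaments attach to, 14 were listed (desmosome plaque and linker genes) and 13 were tested. None fell and 1 rose (against 3.00% lower and 4.65% higher of all tested genes). That gene was Dsc2, a desmosomal cadherin, with 3.99 and 4.15 scaled FPKM in the wild types and 6.75 and 7.24 in the homozygotes (log2 fold change 0.66, SE 0.108, adjusted p = 0.0239 in limma). Dsg2, its desmoglein partner, had 6.53 and 11.9 against 15.9 and 16.3 and did not pass (adjusted p = 0.146). Of the 13 tested, 5 had groups that did not overlap, against 51.1% of all tested genes. Among plaque proteins, Pkp3, a plakophilin, had 10.6 and 14.4 scaled FPKM in the wild types and 17.3 and 16.1 in the homozygotes (adjusted p = 0.231), and Evpl, envoplakin, 2.82 and 6.31 against 2.57 and 2.67 (adjusted p = 0.387). Values overlapped for Dsp and Jup: Dsp, desmoplakin, had 14.3 and 25.8 scaled FPKM in the wild types and 16.6 and 18.5 in the homozygotes, and Jup, plakoglobin, 31.1 and 47.8 against 33.6 and 36.5. The list's median log2 fold change was -0.01. The call of Dsc2 was lost without mouse 26 (adjusted p = 0.160), mouse 29 (0.206) or the filter (0.0621).

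Among 15 transcription factors known to act on keratin genes or basal fate, 14 were tested and 1 rose, Sox2, from 2.42 and 3.86 scaled FPKM in the wild types to 8.35 and 7.40 in the homozygotes (log2 fold change 1.12, SE 0.190, adjusted p = 0.0265 in limma). None fell, and the median was 0.03. Over all tested genes 4.65% were called higher and 3.00% lower. Trp63, the master factor of basal epithelium, had 7.31 and 12.7 scaled FPKM in the wild types and 11.1 and 11.4 in the homozygotes, between the wild types as for Krt5. Tfap2c, an AP-2 factor, had 2.66 and 2.65 against 4.21 and 5.69 and missed the threshold (adjusted p = 0.0558). The call of Sox2 was lost without mouse 26 (adjusted p = 0.0848), without scaling (0.0508) and without the filter (0.0786).

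Of 16 basal-cell genes other than keratins, all were tested, 2 rose and none fell, with a median of 0.12. Over all tested genes 4.65% were called higher and 3.00% lower. Cd44, the hyaluronan receptor, stood at 3.69 and 5.82 scaled FPKM in the wild types and 23.0 and 22.8 in the homozygotes (log2 fold change 2.08, SE 0.189, adjusted p = 0.00350 in limma). In the authors' deposited table Cd44 has a log2 fold of 2.33 and a q-value of 1. The sources available do not say whether that q-value marks a missing test. Itga6, an integrin subunit of hemidesmosomes, stood at 8.43 and 11.0 against 16.1 and 16.5 (log2 fold change 0.70, SE 0.142, adjusted p = 0.0456). Its call was lost without mouse 26 (adjusted p = 0.194) or mouse 29 (0.193), and also without scaling (0.0914), with quantile normalization (0.0537), without the filter (0.0945) and without the trend (0.0539). Of 18 luminal genes other than keratins, 16 were tested, 2 rose (Spdef, an epithelial ETS factor, at 0.90, and Epcam, an epithelial adhesion molecule, at 0.79) and 3 fell (Prlr, the prolactin receptor, at -1.60, Tmprss2, a membrane protease, at -0.75, and Spink3, a secreted protease inhibitor, at -10.12). The call of Spink3 was lost with a robust trend (adjusted p = 0.0668). In the authors' deposited table Spink3 has a log2 fold of -9.29, also with a q-value of 1. The median of the luminal list was 0.23, and 7.65% of all tested genes were called in either direction. Without mouse 26 the adjusted p of Spdef was 0.0781, that of Epcam 0.299 and that of Tmprss2 0.214. Without mouse 28 Epcam stood at 0.0539, and without mouse 29 Epcam stood at 0.234 and Tmprss2 at 0.0863.

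Of 16 intermediate filament genes of other cell types and of the nucleus, 10 were tested and limma called none. Of these 10, 3 had an unadjusted p under 0.05 and 5 an authors' deposited q-value under 0.05. A fold change above 0 was found for 1 (a lamin), and the median log2 fold change was -0.67. The lowest were Nefh (-1.38), Prph (-1.14), Nefl (-0.97) and Nefm (-0.88). Prph had 1.71 and 11.0 scaled FPKM in the wild types and 2.13 and 1.13 in the homozygotes. Nefl and Nefm were also highest in mouse 28. Nefm and Nefh passed the filter only through the wild types. Des, desmin of smooth muscle, had 285 and 185 scaled FPKM in the wild types and 127 and 132 in the homozygotes (adjusted p = 0.0977 in limma). Vim, vimentin of stromal and white blood cells, had 62.8 and 59.2 against 49.3 and 42.5 (adjusted p = 0.129). Neither passed. The mesothelium list, a lining that also makes Krt8, Krt18 and Krt19, had 7 tested genes of 11 in the table and none called by limma (3 at an unadjusted p under 0.05, 2 by the authors' deposited q-value), with a summed level of 109 and 173 scaled FPKM in the wild types and 107 and 116 in the homozygotes. Nkain4, a membrane protein, had 5.12 and 3.08 scaled FPKM in the wild types and 1.80 and 2.02 in the homozygotes (adjusted p = 0.0963), and Podxl, podocalyxin, 9.54 and 9.44 against 12.1 and 11.9 (0.152). Upk1b, also in the urothelium list, held 39.8 and 81.3 scaled FPKM of the mesothelium sum in the wild types and 37.0 and 44.6 in the homozygotes. The part of mesothelium in Krt19 was not tested. White blood cell genes had none called among 5 tested (2 at an unadjusted p under 0.05, none by the authors' deposited q-value), with Cd68, a macrophage protein, at 4.15 and 3.12 scaled FPKM against 5.86 and 5.52 (adjusted p = 0.0965) and Ptprc, the CD45 antigen, at 1.10 and 0.828 against 1.57 and 1.53 (0.178). Of 6 neuroendocrine genes tested, Calca, a neuropeptide gene, rose (log2 fold change 1.78) and Ncam1, a neural adhesion molecule, fell (-1.11, with an adjusted p of 0.135 without mouse 26). Calca had 0.481 and 0.410 scaled FPKM in the wild types and 4.25 and 3.66 in the homozygotes. It passed the filter only through the homozygotes. Of the 6 neuroendocrine genes, 1 had a fold change above 0 (Calca), and the median log2 fold change was -0.72. Over all 13 lists of companion genes, 129 genes were tested and 23 were called, 9 higher and 14 lower. Of all tested genes, 4.65% were called higher and 3.00% lower. The lists were chosen with earlier results of these data known, so this is not an independent comparison. Of the 14 called lower, 6 were seminal vesicle genes.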

How the data were processed

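RNA from prostate lobes gave 1 library for each of 4 mice, grouped by the genotype in the labels, 2 per genotype. Per the labels' protocols, extraction used the RNeasy Plus kit. The authors' deposited table holds FPKM per gene and library, a unit inferred from its values. TopHat 1.3, Cufflinks 1.3 and mm10 come from the submitters' processing notes. Annotation, settings and strand use are not given in the sources available. Per the file headers the authors also deposited a fold change (log2, judged from its values), with p-value and q-value.

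FPKM was divided by median-of-ratios factors (0.921, 1.03, 1.01 and 1.04 for mice 27, 28, 26 and 29) from 11080 genes at 1 FPKM or more throughout. The top value, held by 7 genes, was treated as a missing-data code. Testing required a mean of 1 scaled FPKM. Log2(scaled FPKM + 1) was modelled by genotype with limma 3.58.1 under R 4.3.3, using lmFit and trended eBayes, two-sided, with Benjamini-Hochberg adjustment over 11762 genes and a threshold of 0.05. Fold changes of low genes are understated on this scale. Residual degrees of freedom were 2 and prior ones 3.62, and the script was tested on simulated data. Depth was estimated from the value of 1 fragment in genes with a single transcript. Starts were raised by 1.

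The keratins and the 13 companion lists were chosen with earlier results of these data known. Named keratins are all luminal and basal ones, other keratins called or among the 6 most abundant, and those without overlap and with an absolute log2 fold change of at least 1. From each companion list up to 4 called genes, or otherwise the 2 with the largest statistic, were taken. Other genes were named with their values in view. The fit was repeated without scaling, with quantile normalization, with 0.1 as pseudocount, without a filter, with 5 as the minimum mean, without a trend, with a robust trend and without each library, and was set beside the authors' deposited call. No count model was used on FPKM.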

Additional observations from a re-analysis of the deposited data

How the results depend on the processing

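The count of keratins called, 3 in the reported fit, was 7 by the authors' deposited q-value and ran from 2 to 8 with a library left out (8 without mouse 27, 7 without mouse 28). Keratins called higher numbered 4 without the filter, 1 with a minimum mean of 5, 4 by the authors' deposited q-value and 2 to 6 with a library left out. Keratins called lower numbered 0 for unscaled FPKM, 0 with quantile normalization, 0 without the filter, 2 with a pseudocount of 0.1, 2 with a robust trend, 3 by the authors' deposited q-value and 0 to 5 with a library left out. With a library left out, 0 to 2 luminal, 0 to 3 basal and 2 to 5 other keratins were called, and the authors' deposited q-value called 7 other keratins. Companion genes called numbered 12 without the filter, 59 by the authors' deposited q-value and 15 to 64 with a library left out, against 23. All tested genes called numbered 2034 by the authors' deposited q-value and 384 to 2062 with a library left out, against 900. The direction turned for Krt7 (-0.18 in the authors' deposited table, -0.60 to 1.07 with a library left out), Krt5 (-0.034 and -0.41 to 1.03), Krt79 (0.019 with quantile normalization, -0.12 to 0.021 with a library left out) and Krt18 (-0.20 to 0.0074 with a library left out). The causes were not tested. Krt23 was called under all 11 refits and Krt80 under all 10 that tested it. With a library left out, the mean for the filter was taken over the remaining libraries, and the lone library was taken to be as variable as those of the other genotype. Low depth limits Krt2, Krt13 and the other keratins under 1 scaled FPKM. No paired analysis was possible because no mouse number is shared between the genotypes.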
